A study of Mus musculus with 11 samples.

Results

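Pulmonary artery banding (PAB) narrows the vessel into which the right ventricle pumps, so that the newborn heart matures under a pressure load. The change from postnatal day 3 (P3) to day 7 (P7) in banded mouse hearts was measured in 5 of the 11 RNA-seq libraries of the study, 3 from P3 PAB and 2 from P7 PAB. These are all libraries of banded hearts, and 15808 of the 50600 genes listed passed the filter on low counts and were tested. All mice were C57BL/6 by the labels (C57Bl/6J in the study's methods), operated on at P0, the day of birth. The band was tied around the pulmonary artery together with a needle that was then withdrawn, and sham mice, with 3 libraries at P3 and 3 at P7, had the same operation without the band. The tissue is heart by the labels and ventricles by the study's methods, so the loaded right ventricle was not separated. The labels do not say that the libraries of a group come from separate animals, and p-values therefore measure the spread between these libraries, which may be technical.

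In the first week after birth the mouse heart leaves its fetal state. Cardiomyocytes stop dividing, fetal isoforms of contractile proteins give way to adult ones, and the fuel shifts from glucose and lactate to fatty acids burned in mitochondria. A load on the ventricle is known to raise natriuretic peptides and to hold or bring back fetal isoforms. The comparison asks how this program runs under the load, and the same step of age in sham hearts, which shares no library with it, is given beside it.

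The total count was 21287970 to 25810567 per PAB library. Levels are CPM, counts scaled to a library of 1e+06 after TMM normalization, and compare a gene between libraries, not genes with each other. A gene was called when edgeR's quasi-likelihood test gave a p, adjusted by Benjamini-Hochberg, no higher than 0.05 and the change was at least 1.5-fold. Transcripts of the mitochondrial genome took 11.4% to 13.1% of the counts at P3 PAB and a mean of 18.1% at P7 PAB. Both P7 PAB libraries also differed from all others in a trend with gene length. Their log2 CPM, set against the mean of all libraries, had slopes of -0.150 and -0.141 per doubling of exonic length, against -0.029 to 0.067 elsewhere. Calls lost after removal of this trend are given with the lists, as counts or by gene, and its part in the results was not tested further. All 5 PAB libraries had Xist at 0.873 CPM or below and the Y-linked Ddx3y at 42.9 to 51.0 CPM. P7 sham had only libraries of the opposite class and P3 sham 1 such library, so that class and operation are partly mixed in any comparison of the arms. Ventricular cardiomyocyte markers summed to 63560 to 70450 CPM at P3 PAB and 56550 to 62850 CPM at P7 PAB, with none of the 11 at 0. In these bulk libraries fewer cells of a type and less RNA per cell cannot be told apart.

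From P3 to P7, 1501 genes rose in PAB hearts (9.5% of the genes tested) and 1296 fell (8.2%). The median log2 fold change was 0.84 among the former and -0.84 among the latter. Scaling by the total count instead of TMM puts the median of all genes at -0.246 on the log2 scale, against 0.003 with TMM. The share of higher calls then drops from 53.7% to 17.4%, so all changes given here are relative to the median gene. The P7 libraries lay entirely above the P3 libraries for 32% of all genes and entirely below for 30.7%, so non-overlap of 2 against 3 libraries is common among all genes. In sham hearts 888 genes rose (5.62%) and 906 fell (5.73%). Of the 2797 PAB calls, 694 were called in the same direction in sham hearts, which is 24.8% of the PAB calls and 38.7% of the 1794 sham calls, and 34 went the opposite way. A further 1162 genes were called higher and 907 lower in PAB hearts alone. A call in one arm does not show a difference, so the difference between the arms, the PAB change minus the sham change, was tested for every gene. It passed at an adjusted p of at most 0.05 for 4096 genes, with the PAB change more positive in 2106 (13.3%) and more negative in 1990 (12.6%). That count was 2646 without P7 PAB replicate 1 and 2291 when the class of Xist and Y genes entered the fit. After removal of the length trend the difference passed for 2915 of 15196 genes. Across genes, which are not independent replicates, the changes of both arms had a Spearman correlation of 0.396.

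**Figure D1:**
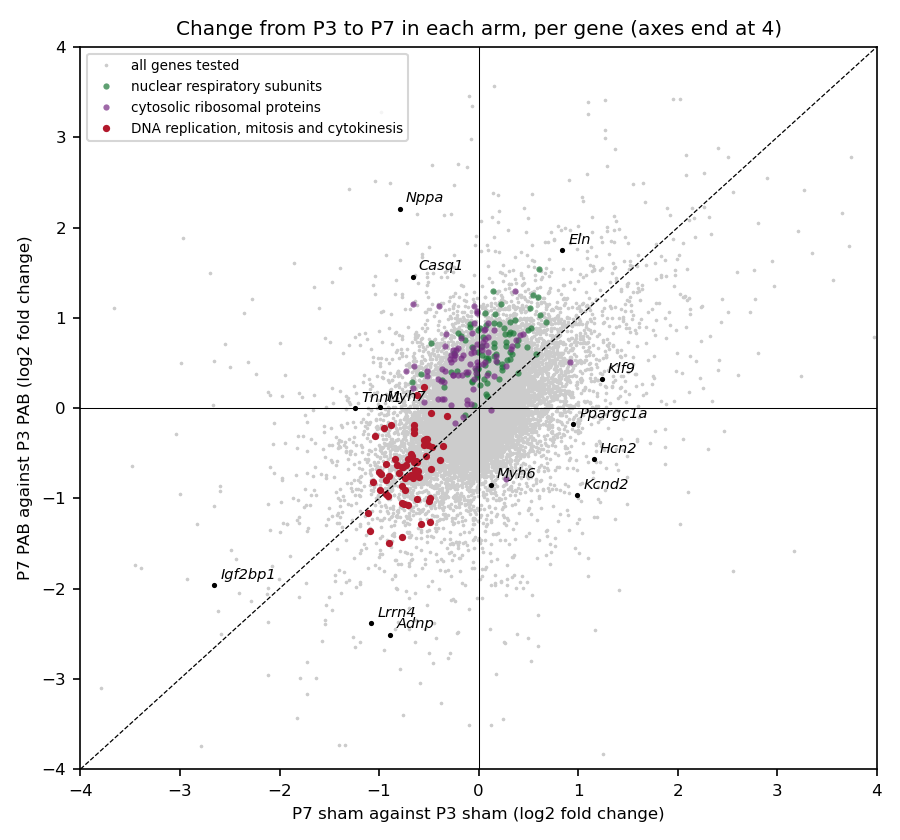
Log2 fold change from P3 to P7 in sham hearts (x axis) and PAB hearts (y axis), 1 point per gene tested, with 3 gene groups colored and single genes in black. Cell cycle genes lie below 0 on both axes apart from a few, respiratory and ribosomal genes lie above the dashed line of equal change, and 85 genes lie beyond the axes.

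Most cell cycle genes tested fell under the band, and most fell in sham hearts. Of 28 DNA replication genes tested, all of those listed, 19 fell and none rose in PAB hearts, with a median log2 fold change of -0.70, against 0.00 for all genes. In sham hearts 21 fell, with a median of -0.73. Of 36 genes of mitosis and cytokinesis, also all tested, 22 fell and none rose, with a median of -0.63, and 26 fell in sham hearts, with a median of -0.65. Together 41 of 64 fell in PAB hearts, 36 of them also in sham hearts. After removal of the length trend, which leaves 927 higher calls (6.1%) and 1105 lower calls (7.27%) among 15196 genes, 19 replication and 17 mitosis genes were called lower.

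Mki67 encodes the Ki-67 protein of dividing cells. Its level was 326, 320 and 311 CPM in the P3 PAB libraries and 151 and 116 CPM in the P7 PAB libraries. Both P7 values were under all P3 values, and the gene fell by 1.26 ± 0.14 (SE) on the log2 scale (adjusted p = 6.6e-06). In sham hearts the level was 312 ± 39.8 CPM at P3 and 222 ± 33.2 CPM at P7 (SD, n = 3 each), a change in log2 of -0.49 that is under 1.5-fold. The difference between the arms was -0.77 ± 0.18 (adjusted p = 0.0059). E2f1, a transcription factor that drives entry into S phase, was at 44.7, 42.4 and 36.2 CPM at P3 PAB and 16.4 and 14.0 CPM at P7 PAB. It fell by 1.43 ± 0.11 under the band (adjusted p = 4.8e-07) and by 0.77 ± 0.09 in sham hearts (adjusted p = 2.7e-05), with a difference of -0.66 ± 0.14 (adjusted p = 0.0042). Chaf1a, a chaperone that places histones on new DNA, fell from 31.4 ± 0.77 CPM (n = 3) to 11.2 ± 0.33 CPM (n = 2), the largest fall on the replication list. Cdt1, which licenses origins, fell by 1.36, Cenpf, a kinetochore protein, by 1.28, Uhrf1, which maintains DNA methylation, by 1.17, and Top2a, the mitotic topoisomerase, by 0.91 on the log2 scale. Pole, a DNA polymerase subunit, fell by 1.07. Aurkb, the kinase of the chromosomal passenger complex, fell by 0.64, and without P3 PAB replicate 1 this was -0.57 and no longer called.

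A few members went the other way between the arms. Cdk1, the mitotic kinase, was at 70.4, 73.5 and 60.5 CPM at P3 PAB and 81.0 and 69.4 CPM at P7 PAB. The groups overlapped, while the gene fell by 0.62 in sham hearts, and the difference was 0.77 ± 0.20 (adjusted p = 0.013). Its partner Ccnb1 (difference 0.70, adjusted p = 0.039), the nucleotide enzyme Tk1 (0.73, adjusted p = 0.0029), the clamp Pcna (0.42, adjusted p = 0.037) and the clamp loader subunit Rfc3 (0.78, adjusted p = 0.00059) likewise had changes in PAB hearts that were not called and more positive than in sham hearts. The difference was called for 11 of the 64 genes, in both directions, and for 7 of these without P7 PAB replicate 1 and 5 with the class of Xist and Y genes in the fit. The differences of Cdk1, Ccnb1 and Pcna were called in neither of these fits. Among all genes tested the difference was called more positive for 13.3% and more negative for 12.6%. The 11 of 64 are thus a smaller share than that of all genes. After removal of the length trend it was called more positive for 3 and more negative for 2 replication genes, and for 1 mitosis gene each way. Among 16 G1 cyclins and inhibitors tested of 17 listed, Cdkn1a, which encodes the inhibitor p21, rose from 51.0 to 84.6 CPM on average (log2 0.73 ± 0.10, adjusted p = 6.2e-05) and the pocket protein gene Rbl1 fell by 0.82. The median was -0.22 in PAB hearts and -0.06 in sham hearts.

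Since these genes moved together in both arms, their promoters (RefSeq, GRCm38.p6, 250 bases before to 50 after the start, first listed promoter of each gene) were searched on both strands for 3 motifs known from cell cycle genes. These are CCAAT, bound by NF-Y, TTTGAA, the cell cycle homology region bound by the DREAM and MuvB complexes, and TTTGGCGC, an E2F site. Promoters were matched for 23 of the 28 replication genes and 30 of the 36 mitosis genes. TTTGAA was present in 73.3% of the mitosis promoters and 8.7% of the replication promoters, and in 11.7% of 10965 promoters of tested genes and 18.1% of all 27025 promoters of the same length. TTTGGCGC was present in 26.1% of the replication promoters and in 0 of the 30 mitosis promoters, and in 1.01% and 0.537% of the same backgrounds. CCAAT was present in 73.3% and 65.2% of the mitosis and replication promoters and in 38.2% and 37.9% of the backgrounds. Of the 18 matched mitosis genes called lower in PAB hearts, 16 held TTTGAA, and of all 30 matched mitosis genes 22 did. The lists hold known cell cycle genes, so the shares per list do not depend on the changes measured here. A match is a description of letters, not of binding. The called members with the largest falls whose promoter holds CCAAT and 1 of the other motifs are shown, 2 for each list, on the strand of the gene with the motif letters, or their complement read backwards, in capitals.
Mki67, chr7:135716330-135716629, minus strand: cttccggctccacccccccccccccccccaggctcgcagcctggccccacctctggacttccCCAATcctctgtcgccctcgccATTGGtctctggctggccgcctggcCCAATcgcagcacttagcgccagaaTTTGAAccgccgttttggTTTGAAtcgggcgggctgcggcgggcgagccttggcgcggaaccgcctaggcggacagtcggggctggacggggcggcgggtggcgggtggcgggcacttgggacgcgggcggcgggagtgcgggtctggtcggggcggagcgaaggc
Cenpf, chr1:189688037-189688336, minus strand: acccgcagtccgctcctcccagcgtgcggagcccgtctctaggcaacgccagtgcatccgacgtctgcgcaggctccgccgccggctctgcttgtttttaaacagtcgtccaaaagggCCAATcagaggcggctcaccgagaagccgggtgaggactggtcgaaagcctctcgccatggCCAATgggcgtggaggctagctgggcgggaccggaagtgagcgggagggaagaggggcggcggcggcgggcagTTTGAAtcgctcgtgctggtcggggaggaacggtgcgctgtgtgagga
Mcm2, chr6:88898731-88899030, minus strand: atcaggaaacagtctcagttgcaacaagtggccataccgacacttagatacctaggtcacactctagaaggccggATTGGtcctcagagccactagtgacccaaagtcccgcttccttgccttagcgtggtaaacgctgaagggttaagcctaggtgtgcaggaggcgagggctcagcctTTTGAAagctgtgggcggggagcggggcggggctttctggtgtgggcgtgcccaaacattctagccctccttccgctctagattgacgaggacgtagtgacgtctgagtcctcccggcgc
E2f2, chr4:136172024-136172323, plus strand: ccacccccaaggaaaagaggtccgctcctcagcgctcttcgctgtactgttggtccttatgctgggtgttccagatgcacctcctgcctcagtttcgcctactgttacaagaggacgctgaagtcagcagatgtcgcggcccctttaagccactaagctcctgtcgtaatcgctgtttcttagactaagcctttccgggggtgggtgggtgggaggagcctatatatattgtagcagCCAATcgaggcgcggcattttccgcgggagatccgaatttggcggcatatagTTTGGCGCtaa

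Of 15 natriuretic and stretch response genes tested, 7 rose and none fell, with a median log2 change of 0.57, and after removal of the length trend 4 of 13 were called higher. In sham hearts 1 rose and 4 fell, with a median of 0.02. Nppa encodes atrial natriuretic peptide (ENSMUSG00000041616, GRCm38 chromosome 4, 148000722 to 148002079). It was at 327, 406 and 256 CPM in P3 PAB and at 1786 and 1265 CPM in P7 PAB. Both P7 libraries were above all P3 libraries, a 4.63-fold rise (log2 2.21 ± 0.30, adjusted p = 3.9e-05). In sham hearts Nppa went down, from 125 ± 54.9 at P3 to 72.4 ± 17.9 CPM at P7 (SD, n = 3 each; log2 -0.79, adjusted p = 0.037), and the difference between the arms was 3.00 ± 0.40 (adjusted p = 0.00022). Nppa is itself an atrial marker. The 9 atrial markers summed to 461 to 535 CPM at P3 PAB and 1494 to 1986 CPM at P7 PAB, and without Nppa to 124 to 279 and 199 to 230 CPM, which overlap. The atrial ligand gene Bmp10 fell by 1.79, at 2.37 CPM or below in each PAB library, and was not called without P3 PAB replicate 1 (-1.27) or P7 PAB replicate 1 (-1.09). Nppb, the neighboring gene for brain natriuretic peptide, was at 160, 155 and 133 CPM in P3 PAB and 367 and 270 CPM in P7 PAB. It rose by a log2 fold change of 1.09 ± 0.25 (adjusted p = 0.0026), which was 0.57 and not called after removal of the length trend, and the difference from sham hearts was 1.58 ± 0.34 (adjusted p = 0.0043). Acta1, the skeletal isoform of actin that the fetal heart uses, was at 179, 325 and 387 CPM and then 820 and 720 CPM, a log2 fold change of 1.37 ± 0.32 (adjusted p = 0.0026), while its difference between the arms was not called (1.07, adjusted p = 0.083). Xirp2, a protein of the intercalated disc, rose in both arms, by 1.11 under the band and 2.24 in sham hearts. Uchl1, a deubiquitinase, rose by 0.84, Krt8 by 0.82 and Krt18 by 0.78, and none of these 3 was called after removal of the length trend. Krt8 and Krt18 were also not called without P7 PAB replicate 1 (0.60 and 0.53). Ankrd1, a titin-binding protein induced by stretch, was at 1157, 1167 and 990 CPM and then 1948 and 1328 CPM, a log2 change of 0.57 that is just under the fold threshold and was called without P3 PAB replicate 2 (0.61) or P7 PAB replicate 2 (0.82).

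Some stretch and fetal genes held their level in PAB hearts and fell in sham hearts. Tnni1, the slow skeletal troponin I of the fetal heart (ENSMUSG00000026418), was at 1178, 1235 and 1302 CPM in P3 PAB and 1233 and 1246 CPM in P7 PAB. These values overlap, with a log2 change of 0.00 ± 0.08, whereas the sham mean fell from 1248 ± 34.9 to 527 ± 35.6 CPM (n = 3 each, log2 -1.25, adjusted p = 7.6e-09). The difference was 1.25 ± 0.10 (adjusted p = 6.3e-06). Tnni3, the adult cardiac isoform, had log2 changes of 0.39 ± 0.09 and 0.50 ± 0.09 in PAB and sham hearts, both under 1.5-fold, and their difference was -0.11 ± 0.13 (adjusted p = 0.56). Myh7, the slow myosin heavy chain, was at 1262, 1625 and 770 CPM and then 1046 and 1409 CPM in PAB hearts, a wide spread within each age. It fell in sham hearts from 549 to 276 CPM, and the difference of 1.00 ± 0.34 (adjusted p = 0.043) was not called with the class term (adjusted p = 0.11). Myl9, a myosin light chain of smooth muscle and young cardiomyocytes, had a difference of 1.42 ± 0.28 (adjusted p = 0.0022), Ctgf, a matrix protein induced by stretch, of 1.46 ± 0.32 (adjusted p = 0.0044), and Gdf15, a stress cytokine, of 1.55 ± 0.37 (adjusted p = 0.0072). With the class term the difference of Gdf15 was 1.01 and not called (adjusted p = 0.10). All 3 fell in sham hearts and had overlapping P3 and P7 values in PAB hearts.

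**Figure D2:**
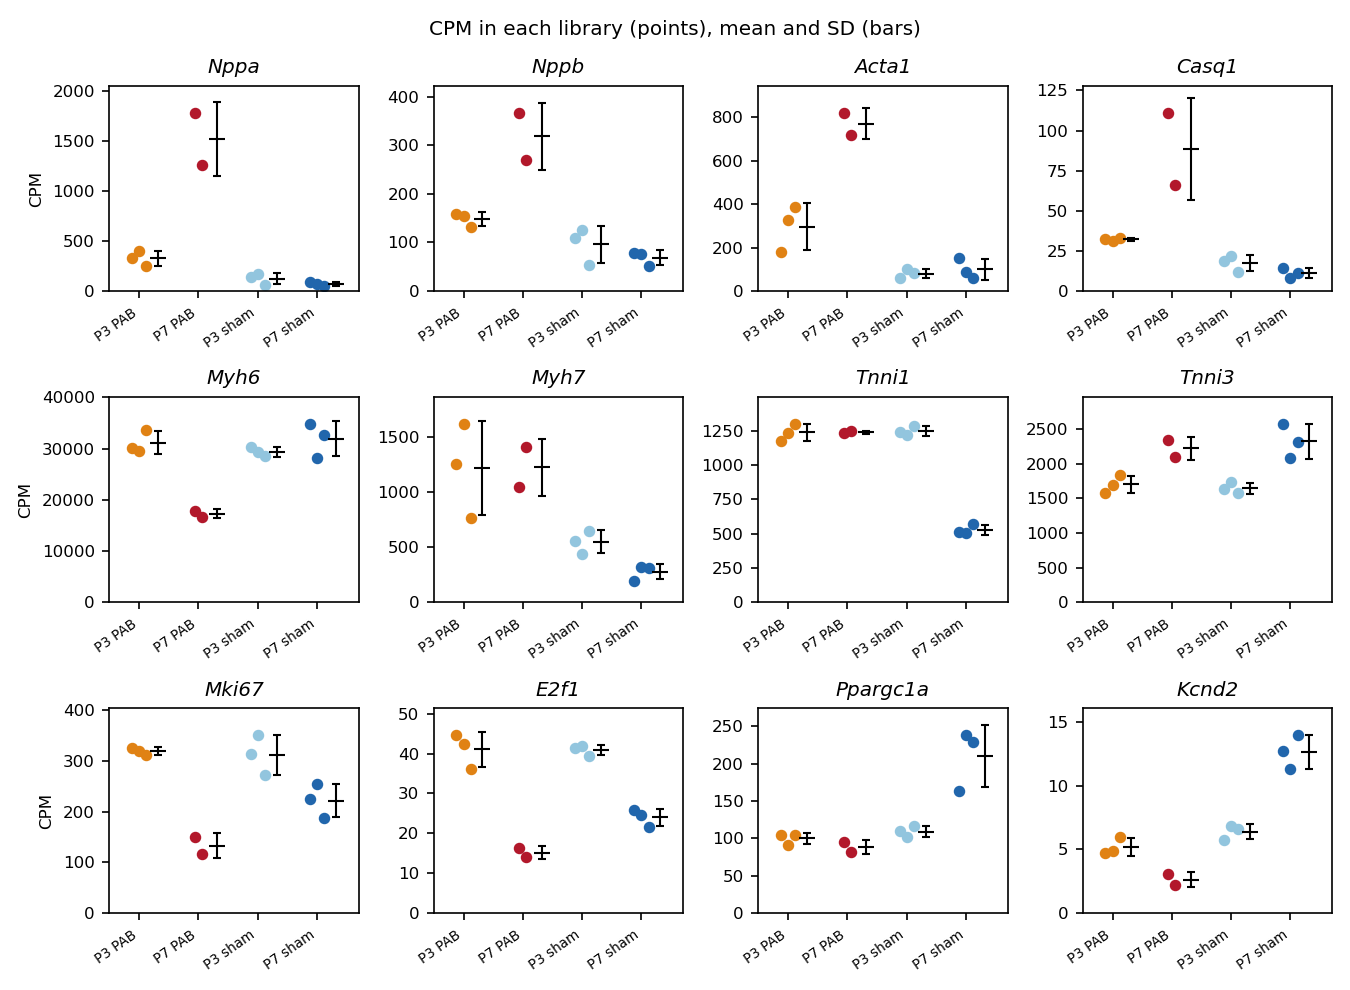
CPM of 12 genes in each library (points) by group, with the mean and SD beside them. Nppa, Nppb, Acta1 and Casq1 were higher at P7 than at P3 in PAB hearts, Myh6, Mki67, E2f1 and Kcnd2 were lower, and Myh7 and Tnni1 overlapped.

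Among thick filament genes Myh6 fell, the fast adult myosin heavy chain (ENSMUSG00000040752, chromosome 14, 54941921 to 54966927). It was at 30100, 29520 and 33660 CPM in P3 PAB and 17890 and 16630 CPM in P7 PAB, 1.80-fold lower (log2 -0.85 ± 0.09, adjusted p = 5.3e-06). The groups were far apart, and in sham hearts the log2 change was 0.12 ± 0.08, so that the difference was -0.97 ± 0.12 (adjusted p = 0.00011). Of 15 thick filament genes tested, all of those listed, 1 rose and 2 fell in PAB hearts, with a median of 0.07 that was 0.09 in sham hearts. That is 20% called, near the 17.7% of all genes. The others called were Myh7b, which fell by 0.67, and Myom3, an M band protein at 1.01 to 3.23 CPM, which rose by 0.91. Of 16 thin filament genes 3 rose (18.8%), which were Acta1, Tpm2 and Lmod2, with a median of 0.20. Tpm2, a tropomyosin, was at 98.1, 101 and 112 CPM and then 236 and 182 CPM (log2 1.01 ± 0.14, adjusted p = 6.3e-05), with a difference from sham hearts of 1.17 ± 0.20 (adjusted p = 0.00086). Tnnt2, cardiac troponin T, changed by -0.11 ± 0.07 and was not called in either arm. Of 20 Z disc and costamere genes tested of 21 listed, 5 rose, namely Xirp2, Myot, Fhl2, Cryab and Myoz2, and none fell, with a median of 0.15. Fhl2, a scaffold that binds titin, rose from 717 to 1278 CPM on average (log2 0.83 ± 0.08, adjusted p = 2.0e-06), with a difference of 0.76 ± 0.11 (adjusted p = 0.00025). Without P7 PAB replicate 1, 1 of the 3 thick filament, 2 of the 3 thin filament and 2 of the 5 Z disc calls were left. Myh7b and Myom3 were also not called without P3 PAB replicate 3 (-0.58 and 0.68). Myh7b (-0.55), Lmod2 (0.44) and Cryab (0.46) were not called after removal of the length trend.

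Genes of fuel use were called higher in PAB hearts at a share near that of all genes, and none was called lower. Of the lists of glycolysis, fatty acid and tricarboxylic acid cycle genes 8%, 6.9% and 9.52% were called, each higher, against 17.7% of all genes called in either direction and 9.5% called higher. Of 25 genes of glucose uptake and glycolysis, 2 rose and none fell in PAB hearts, with a median of 0.29, whereas 4 fell and none rose in sham hearts, with a median of -0.18. The difference was called for 16 of them, 14 with a more positive change in PAB hearts, and for 8 of the 16 without P7 PAB replicate 1. Gapdh was at 2905, 2914 and 2908 CPM in P3 PAB and 5854 and 4196 CPM in P7 PAB. It rose by a log2 fold change of 0.79 ± 0.14 (adjusted p = 0.00043), though both P7 libraries differed widely. The lactate exporter Slc16a3 rose by 0.64 (adjusted p = 0.027) and fell by 0.82 in sham hearts. Without P7 PAB replicate 1 neither rise was called, at 0.53 for Gapdh and 0.26 for Slc16a3. Slc16a3 was also not called by DESeq2, with the replicate block (0.51) or without P3 PAB replicate 2 (0.54) or 3 (0.62). Pgk1, phosphoglycerate kinase, was at 750, 682 and 652 CPM in P3 PAB and 1083 and 768 CPM in P7 PAB, a log2 change of 0.41 ± 0.14 that is under 1.5-fold but was called without P7 PAB replicate 2 (0.64). It fell by 0.63 in sham hearts, and the difference was 1.04 ± 0.19 (adjusted p = 0.0012). The difference was 0.89 for lactate dehydrogenase Ldha, 0.86 for the enolase Eno1 and 0.70 for the glucose transporter Slc2a1, the last of which was not called without P7 PAB replicate 1 (0.59). Of 29 genes of fatty acid uptake and oxidation 2 rose, the fatty acid binding protein Fabp3 (0.62) and the thioesterase Acot13 (0.71), with a median of 0.20 and 0 calls lower. In sham hearts none rose and 1 fell, with a median of -0.02, and the difference was called for 10, each more positive in PAB hearts, and for 6 of these with the class term. Fabp3 was also not called with the replicate block (0.58) or without P7 PAB replicate 1 (0.58). After removal of the length trend the median of the fatty acid list in PAB hearts was 0.04. Neither Fabp3 nor Acot13 was then called, the hydratase Echs1 was called higher (0.65) and the thioesterase Acot2 lower (-0.76). Of 21 tricarboxylic acid cycle genes Sdhd and Mdh1 rose, with a median of 0.36, and after removal of the length trend 17 passed the adjusted p in edgeR but 0 also reached 1.5-fold. Mdh1 was also not called with the replicate block (0.56) or without P3 PAB replicate 3 (0.57) or P7 PAB replicate 1 (0.51). In sham hearts the median of these genes was 0.07, and the difference was called more positive for 8 and more negative for 1, and of these 9 for 4 with the class term and 6 without P7 PAB replicate 1.

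Several hormone and metabolic regulators rose in sham hearts and were not called under the band. Of 25 hormone and metabolic regulators tested of 26 listed, 2 rose and 2 fell in PAB hearts, with a median of -0.17, and 5 rose and 1 fell in sham hearts, with a median of 0.28. The PAB calls are 16% of the list, near the 17.7% of all genes called. The difference was called for 10, each with a more negative change in PAB hearts, and for 8 of these with the class term and 8 without P7 PAB replicate 1. After removal of the length trend the difference was called more negative for 7 and more positive for 1. Ppargc1a, a coactivator of mitochondrial biogenesis, was at 104, 91.3 and 104 CPM in P3 PAB and 95.1 and 81.5 CPM in P7 PAB, which overlap. It rose in sham hearts from 109 ± 7.4 to 210 ± 41.2 CPM (n = 3 each, log2 0.95), and the difference was -1.13 ± 0.18 (adjusted p = 0.00057). Ppara, the receptor that turns on fatty acid oxidation genes, was at 13.8, 13.6 and 14.4 CPM and then 11.4 and 10.3 CPM, a log2 change of -0.36 ± 0.10 that is under 1.5-fold. It rose by 0.73 in sham hearts, with a difference of -1.09 ± 0.13 (adjusted p = 0.00012). Klf9, a target of thyroid hormone and glucocorticoid receptors, had a difference of -0.91 ± 0.14 (adjusted p = 0.0004), and Thrb, a thyroid hormone receptor at 2.21 to 3.65 CPM in PAB hearts, of -0.83 ± 0.27 (adjusted p = 0.036), which was called neither with the class term nor without P7 PAB replicate 1. Ppargc1b, a second coactivator, fell by 1.11 and the growth factor receptor Igf1r by 0.90 in PAB hearts. Igf1r was at -0.55 and not called after removal of the length trend, when the adrenergic receptor genes Adrb1 (-0.61) and Adra1b (-0.65) were called lower. The retinoid receptor Rxrg rose in both arms, by 1.28 and 1.59, and the orphan receptor Esrrb rose by 0.76.

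Many genes of the respiratory chain, ribosome and proteasome rose, and fewer were called after removal of the length trend or with scaling by the total count. The latter gave 24 higher calls among the nuclear respiratory subunits, 11 among the cytosolic and 7 among the mitochondrial ribosomal proteins and 3 among the proteasome subunits. Of 82 nuclear subunits of respiratory complexes 46 rose and none fell in PAB hearts, with a median of 0.62, against 4 higher and 1 lower and a median of 0.09 in sham hearts. The difference was called for 59, each more positive in PAB hearts, for 46 with the class term and for 43 without P7 PAB replicate 1. With the length trend removed it was called more positive for 40 and more negative for 1. After removal of the length trend 20 of 80 were called higher, with a median of 0.35. Atp5l, a subunit of ATP synthase, was at 256, 257 and 260 CPM in P3 PAB and 771 and 725 CPM in P7 PAB. The groups were far apart (log2 1.54 ± 0.09, adjusted p = 2.3e-08), and the log2 fold change was 1.65 after removal of the trend. Atp5j2 rose by 1.29, Ndufb4 of complex I by 1.25 and Uqcr11 of complex III by 1.23, and each was still called after that removal. The estrogen related receptor element TCAAGGTCA was present in only 2 of 64 matched promoters of respiratory subunits (3.12%). It was in 0 of 24 of the fatty acid genes and in 0.283% of promoters of tested genes. Of 85 cytosolic ribosomal protein genes tested of 87 listed, 38 rose and none fell, with a median of 0.52, and the median was -0.07 in sham hearts, where 1 rose and 4 fell. After removal of the trend 15 were called higher. Rps29 and Rpl39 rose by 1.30 and 1.13. Rpl22l1, a paralog of Rpl22, was at 31.1, 28.8 and 23.8 CPM and then 65.0 and 59.1 CPM and rose, whereas it fell in sham hearts, with a difference of 1.81 ± 0.18 (adjusted p = 3.1e-05). Ribosomal protein genes share sequence with many pseudogenes, so reads may be divided between copies. Of 77 mitochondrial ribosomal protein genes 18 rose (median 0.45, 6 after removal of the trend), among them Mrps21, by 0.99, which was 0.45 and not called after that removal. Of 38 proteasome subunits tested of 39 listed, 12 rose (median 0.49, 8 after removal). Psmb1 rose by 0.94, and the subunits of the immunoproteasome Psmb8, by 1.22, and Psmb9, by 1.96 from 1.30 to 2.21 CPM to 5.82 to 7.29 CPM.

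**Figure D3:**
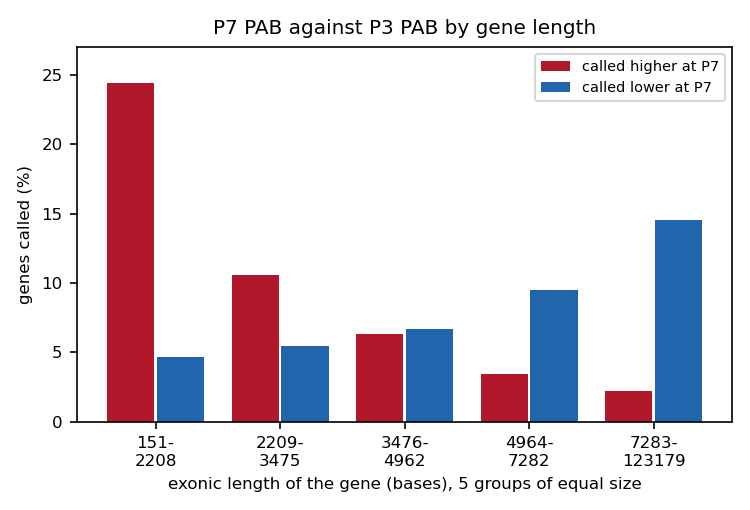
Share of genes called higher and lower from P3 to P7 in PAB hearts (y axis, percent) in 5 groups of exonic length (x axis, bases). In the shortest group 24.4% were called higher and 4.64% lower, and in the longest 2.24% and 14.5%.

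Across 15196 genes the log2 fold change had a Spearman correlation with exonic length of -0.368 in PAB hearts and -0.0345 in sham hearts. The medians of calcium handling, intercalated disc and channel genes, at -0.12, -0.22 and -0.18, became 0.07, -0.10 and -0.08 after its removal. The calcium handling gene Asph (0.62), the splicing regulator Mbnl1 (0.64), the clock gene Arntl (0.72) and the matrix gene Postn (0.65) were then called higher and Hcn2 (-0.66) lower.

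**Figure D4:**
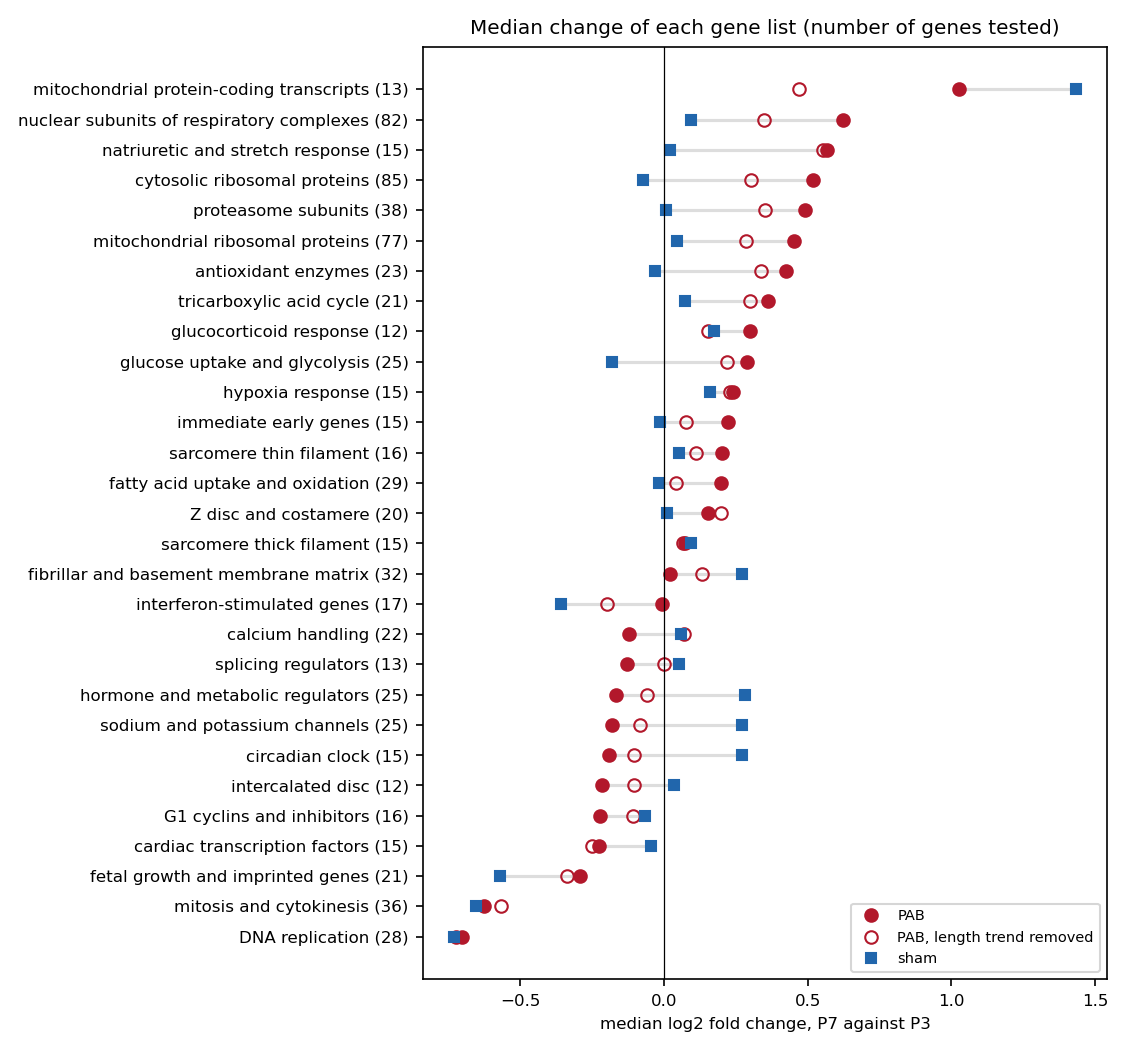
Median log2 fold change from P3 to P7 of the 29 gene lists (x axis), with the number of genes tested in parentheses, in PAB hearts (filled circles), in PAB hearts after removal of the length trend (open circles) and in sham hearts (squares). DNA replication and mitosis genes have the lowest medians in both arms, and the respiratory, ribosomal and proteasome lists move toward 0 when the length trend is removed.

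Of 13 protein-coding transcripts of the mitochondrial genome 9 rose in PAB hearts, with a median of 1.03, and in sham hearts 9 rose and 3 fell, with a median of 1.43. After removal of the length trend 5 were called higher and 2 lower in PAB hearts, with a median of 0.47. mt-Nd1 was at 9175, 9318 and 10160 CPM in P3 PAB and 25160 and 22420 CPM in P7 PAB, a log2 fold change of 1.32 ± 0.08 that was 1.43 in sham hearts. mt-Nd2, mt-Cytb and mt-Co1 rose by 1.46, 1.10 and 0.77, and mt-Co1 was not called after that removal (0.47). mt-Co2 was at 4150, 4094 and 4506 CPM and then 4547 and 4123 CPM in PAB hearts, which overlap, while it fell by 2.67 in sham hearts. mt-Co3 and mt-Atp6 had log2 changes of -0.28 and -0.44 under the band and fell by 3.04 and 1.82 in sham hearts, with differences of 2.76 ± 0.15 and 1.39 ± 0.14. Over the 13 transcripts the difference was called more positive for 4 and more negative for 7, with a median of -0.28, and for 3 and 9 after removal of the length trend. mt-Co3 and mt-Atp6 were both called lower under the band after removal of the length trend (-0.80 and -1.01). Gm28438, Gm10925 and Gm28439 are nuclear copies of mitochondrial genes on chromosome 1 and rose by 2.60, 1.83 and 1.42. Reads of such copies and of the mitochondrial genome can be exchanged, so the levels of single transcripts are uncertain.

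Of 22 calcium handling genes tested of 23 listed, 2 rose and 4 fell, which is 27.3% against 17.7% of all genes, and after removal of the length trend 2 were called higher and 2 lower. The difference between the arms was called more positive for 2 and more negative for 6, but for 5 and 4 after removal of the length trend. Its median was -0.24 before and 0.02 after that removal. Casq1, the skeletal form of the calcium store protein calsequestrin, was at 32.6, 31.3 and 33.0 CPM in P3 PAB and 111 and 66.1 CPM in P7 PAB. It rose by a log2 fold change of 1.46 ± 0.22 (adjusted p = 9.4e-05) and fell by 0.66 in sham hearts, with a difference of 2.12 ± 0.32 (adjusted p = 0.00041). S100a1, a calcium sensor, rose by 0.95 and by 0.82 in sham hearts, and its PAB change was 0.39 and not called after removal of the length trend. The release channel Ryr2 fell by 0.77, from 1259, 1163 and 1395 CPM to 766 and 727 CPM, and the calcium channel Cacna1c by 0.75. Both are very long transcripts, and neither was called after removal of the length trend (-0.29 and -0.34). The exchanger Slc8a1 fell by 1.02 and the T-type channel Cacna1h by 0.90, and both also fell in sham hearts, by 0.65 and 1.21. Of 25 sodium and potassium channel genes tested of 27 listed, Kcne1 rose in both arms, by 0.85 and 0.72, and Scn4a and Kcnd2 fell in PAB hearts. The PAB calls are 12% of the list, against 17.7% of all genes. Kcnd2, which carries the transient outward current of adult mouse ventricle, was at 4.69, 4.85 and 6.01 CPM in P3 PAB and 3.06 and 2.22 CPM in P7 PAB. It fell by 0.97 ± 0.18 (adjusted p = 0.00062) and rose by 0.99 in sham hearts, with a difference of -1.96 ± 0.22 (adjusted p = 8.6e-05). Its subunit Kcnip2 had a difference of -0.64 ± 0.14 (adjusted p = 0.0036) and the pacemaker channel Hcn2 of -1.73 ± 0.19 (adjusted p = 6.1e-05), and both were called higher in sham hearts and not called in PAB hearts, though Hcn2 was called lower without P3 PAB replicate 3 (-0.66) or P7 PAB replicate 2 (-0.73). Of 12 intercalated disc genes the desmoplakin gene Dsp fell, by 0.68, and it was not called after removal of the trend (-0.48).

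Of 15 cardiac transcription factors 5 fell and none rose in PAB hearts, with a median of -0.23, and 1 fell in sham hearts. Hey2, a repressor of the ventricular compact layer, was at 30.8, 31.6 and 38.8 CPM and then 14.1 and 12.7 CPM. It fell by 1.33 ± 0.14 in PAB hearts and by 1.71 in sham hearts (difference 0.38, adjusted p = 0.15). Myocd, the coactivator of serum response factor, fell by 0.94 ± 0.10 (adjusted p = 7.0e-06), from 85.4 to 91.4 CPM to 43.7 to 47.9 CPM, with a difference of -1.07 ± 0.13 (adjusted p = 0.00014). Tbx5 fell by 0.67, Prox1 by 0.62 and Nkx2-5 by 0.61, and these 3 were not called without P7 PAB replicate 1 (-0.56, -0.55 and -0.56). Nkx2-5 was also not called without P3 PAB replicate 2 (-0.55), and Prox1 not after removal of the length trend (-0.45). Of 21 fetal growth and imprinted genes 7 fell and none rose, with a median of -0.29, and 10 fell in sham hearts, with a median of -0.57. Igf2bp1, a fetal RNA binding protein, was at 8.59, 7.75 and 8.73 CPM in P3 PAB and 2.45 and 1.82 CPM in P7 PAB. It fell by 1.96 ± 0.20 under the band and 2.66 ± 0.19 in sham hearts (difference 0.70, adjusted p = 0.084). Its relatives Igf2bp3 and Igf2bp2 fell by 0.90 and 0.60, and the imprinted genes Zim1, Dlk1, Peg3 and H19 by 1.41, 1.08, 0.92 and 0.61. Without P7 PAB replicate 1 Dlk1 (-0.72) and H19 (-0.51) were not called. Igf2bp2 was not called without P3 PAB replicate 3 (-0.46) or P7 PAB replicate 2 (-0.55), with the replicate block (-0.56) or after removal of the length trend (-0.46). The growth factor Igf2 was at 976, 979 and 978 CPM and then 580 and 737 CPM, a log2 change of -0.57 that is just under the fold threshold and was called without P7 PAB replicate 2 (-0.75). Of 13 splicing regulators tested of 14 listed, 0 were called in PAB hearts by edgeR and 0 by DESeq2, with a median of -0.13, and 6 had an unadjusted p under 0.05 at less than 1.5-fold.

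Matrix genes were mixed. Of 32 matrix genes 5 rose and 1 fell in PAB hearts, with a median of 0.02, and 6 rose and 2 fell in sham hearts, with a median of 0.27. The PAB calls are 18.8% of the list, near the 17.7% of all genes called. Eln, which encodes elastin of elastic fibers (ENSMUSG00000029675, chromosome 5, 134702593 to 134747323), was at 478, 480 and 516 CPM in P3 PAB and 1461 and 1850 CPM in P7 PAB. It rose 3.37-fold (log2 1.75 ± 0.14, adjusted p = 6.1e-07) and by 0.84 in sham hearts, with a difference of 0.92 ± 0.19 (adjusted p = 0.003). Over the 32 matrix genes the difference was called more positive for 3 and more negative for 10, but for 7 and 1 after removal of the length trend. Mfap4, a microfibril protein, rose from 31.2 to 32.3 CPM to 111 to 115 CPM (log2 1.83 ± 0.08) and was also called higher in sham hearts. Col8a1, a short chain collagen of vessels, rose by 1.11, the proteoglycans Lum, Dcn and Bgn rose by 1.02, 0.73 and 0.64, and the fetal fibrillin Fbn2 fell by 0.64. Bgn was not called without P3 PAB replicate 3 (0.57) or P7 PAB replicate 2 (0.56) or with the replicate block (0.58), and Fbn2 not without P7 PAB replicate 2 (-0.53) or after removal of the length trend (-0.34). In sham hearts fibroblast markers summed to 4048 to 4633 CPM at P3 and 5251 to 5429 CPM at P7. In PAB hearts they summed to 4090 to 4287 CPM at P3 and 3732 to 4652 CPM at P7, which overlap. None of the 10 was at 0, and 3 of them rose in PAB hearts (Mfap4, Lum and Dcn). The smooth muscle genes Tagln and Myh11 rose by 0.97 and 0.87 and the pericyte gene Vtn by 1.14, while the 9 markers of that list summed to 2024 to 2460 and 2033 to 2473 CPM. Of 10 endothelial markers Egfl7 rose, by 0.68, and the sum was 1435 to 1592 and 1484 to 1644 CPM. Of 11 macrophage markers Lyz2 rose, by 0.95, and the sum went from 116.5 to 128.2 CPM to 148 to 169.6 CPM.

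Of 8 epicardial markers tested 5 fell and none rose, with a median of -0.76, and 2 fell in sham hearts, with a median of -0.46. Their sum was 121.6 to 138.5 CPM at P3 PAB and 96.6 to 113 CPM at P7 PAB, with none at 0. Lrrn4, a membrane protein of mesothelium, was at 11.2, 10.0 and 12.7 CPM and then 1.79 and 2.56 CPM, a 5.23-fold fall (log2 -2.39 ± 0.20, adjusted p = 1.1e-06). It fell by 1.08 in sham hearts, with a difference of -1.31 ± 0.27 (adjusted p = 0.003). Upk1b, Upk3b, Msln and Tbx18 fell by 1.20, 1.10, 0.91 and 0.60. Tbx18 was not called without P3 PAB replicate 1 (-0.56) or P7 PAB replicate 1 (-0.52), nor after removal of the length trend (-0.57), which left 4 epicardial calls. Wt1, the epicardial transcription factor, was at 16.3 to 19.1 CPM and 17.5 to 19.2 CPM, a log2 change of 0.03 ± 0.11. C3, the central complement component, fell from 248, 258 and 318 CPM to 25.4 and 45.5 CPM, a log2 fold change of -2.96 ± 0.36 (adjusted p = 1.8e-05), and it fell by 2.11 in sham hearts.

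Stress and hormone response genes were mixed. Of 23 antioxidant enzymes 8 rose and none fell, with a median of 0.43 (5 after removal of the length trend), and 1 rose in sham hearts. The quinone reductase Nqo1 rose by 1.18 and the glutathione peroxidases Gpx3 and Gpx4 by 1.03 and 0.90. Of 15 hypoxia response genes 2 rose and 1 fell, with a median of 0.24, which is 20% called and near the 17.7% of all genes. The vasodilator peptide gene Adm fell by 0.62, and the growth inhibitor Ddit4, which is also on the glucocorticoid list, rose by 0.64. Adm was not called without P7 PAB replicate 2 (-0.53). Ddit4 was not called without P3 PAB replicate 3 (0.54) or P7 PAB replicate 2 (0.53), nor after removal of the length trend (0.38). Bnip3, a receptor for removal of mitochondria, was at 66.3, 61.4 and 63.6 CPM and then 177 and 142 CPM (log2 1.32 ± 0.10, adjusted p = 3.2e-07), with a difference of 1.06 ± 0.13 (adjusted p = 0.00014). Of 15 immediate early genes Nr4a1 (1.41), Atf3 (1.23) and Btg2 (0.80) rose and Egr1 fell by 0.97, with a median of 0.22, and Nr4a1 rose by 1.39 in sham hearts. Atf3 was not called without P7 PAB replicate 1 (1.01, adjusted p = 0.073). Of 12 glucocorticoid response genes 4 rose and 1 fell, with a median of 0.30. Per1, a clock gene that glucocorticoids also induce, was at 23.5, 24.3 and 24.2 CPM and then 65.2 and 100 CPM (log2 1.78 ± 0.16), and it rose by 1.13 in sham hearts. The kinase Sgk1 rose by 0.98 and the chaperone Fkbp5 fell by 0.70. Fkbp5 was at -0.50 and not called after removal of the length trend, and 3 glucocorticoid genes were then called higher. Of 15 circadian clock genes Per1 alone was called in PAB hearts, with a median of -0.19, and the difference was called more negative for 7, among them Dbp at -0.93 (adjusted p = 0.0078), and more positive for 1. Of these 8 differences 4 were called without P7 PAB replicate 1, with Dbp at -0.70 (adjusted p = 0.058). Of 17 interferon-stimulated genes Rsad2 and Oasl2 fell, by 0.91 and 0.59, with a median of -0.01. Oasl2 was not called without any one of the P3 PAB libraries (-0.57 to -0.61) or without P7 PAB replicate 2 (-0.40), nor after removal of the length trend (-0.48), when Isg15 was called lower (-0.94).

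The 12 largest rises and 12 largest falls were taken among called genes that averaged 10 CPM or more and whose libraries did not overlap. Beside Nppa, Mfap4, Per1, Eln and the mitochondrial copies, the rises were led by the long noncoding RNA Gm26735, which was at 0.00 to 1.70 CPM in P3 PAB and 28.9 to 33.6 CPM in P7 PAB and also rose in sham hearts. Gt(ROSA)26Sor, a noncoding transcript antisense to Thumpd3, was at 4.36, 5.07 and 4.79 CPM in P3 PAB and 57.0 and 47.2 CPM in P7 PAB. It was at 4.78 to 5.98 CPM in all sham libraries, and the difference was 3.56 ± 0.17 (adjusted p = 3.0e-08). Without a stated strand setting its reads cannot be told from those of Thumpd3. Gm10053, a copy of the cytochrome c gene, rose by 3.39, the mitochondrial mt-Nd4l by 2.12, the interferon-induced GTPase Iigp1 by 1.88 and the ATP synthase associated Usmg5 by 1.87. Beside C3 and Chaf1a, the falls were led by Adnp, a regulator of chromatin, which was at 35.2, 31.8 and 31.9 CPM and then 6.11 and 5.42 CPM. It fell by 2.51 ± 0.16 (adjusted p = 6.7e-08) and by 0.89 in sham hearts, with a difference of -1.62 ± 0.20 (adjusted p = 0.00011). Zbed6, which lies inside Zc3h11a on the same strand, fell by 2.19, the kinase Hipk2 by 1.71, Pkhd1l1 by 1.69, the aminopeptidase Lnpep by 1.55, Zfp871 by 1.52, the citron kinase Cit of cytokinesis by 1.48 and the chromatin remodeler Srcap by 1.46. The noncoding 2900097C17Rik fell by 1.69, and Gm9581 fell by 1.94. The differences between the arms were largest for the Y-linked Uty (8.26) and Eif2s3y (7.89), which follow the class of the libraries and are fitted against P7 sham libraries at or near 0, so that their size is no bound. On the other side A530058N18Rik_2 had a difference of -3.62, and Hmcn2, a hemicentin of basement membranes, which rose in both arms, of -2.30.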

How the data were processed

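RNA-seq read counts per gene were analysed for 11 libraries. As deposited by the authors, the table holds raw counts by gene name, which were not normalized. STAR 2.5.2b is named in the submitters' processing notes, and the counter, its strand setting and the annotation release are not given in the sources used here. No per-sample column was left out. Of 50600 names 27 had been turned into dates, 2765 had no match in GENCODE M21, and 47808 had an exonic length there (build GRCm38).

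Counts were fitted in R 4.3.3 with edgeR 4.0.16 (TMM, filterByExpr, quasi-likelihood F test) over all 11 libraries in 4 groups taken from the labels, and every adjusted p in the text comes from these fits or their alternatives. The length trend was removed with a lowess fit (span 0.3) of each library's log2 CPM deviation on exonic length. Alternatives were other scalings and filters, DESeq2 1.42.0, a replicate block, thinned counts, a class term and each library left out in turn. The fit without a filter used the non-legacy method of edgeR. The fits were tested on simulated data. Total counts limit the precision to counting error and the spread between libraries. Promoters came from RefSeq tables of GRCm38.p6.

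Named genes were taken from some of those that the study's text gives for RNA-seq, staining or qPCR. These are Nppa, Nppb, Myh7, Tnni1, Myl9, Pgk1, Mki67, Aurkb and Tnnt2, with Nppb given there by qPCR in rat only. The immune genes Ccl2, Tnf and Il-4 of that text are not among them. Others came from the lists, of which only some members are named, chosen after their values were seen. The rest are the 12 largest rises, 12 largest falls and 6 largest differences between the arms in each direction. They were taken among genes that averaged 10 CPM or more and whose P3 and P7 PAB libraries did not overlap. The members and lists were chosen with earlier results of these data known, and 1 small list is not reported here. Antisense and overlapping genes cannot be separated without a known strand setting.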

Additional observations from a re-analysis of the deposited data

Results flagged for a closer look

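The change from P3 to P7 differed between PAB and sham hearts in the interaction test (edgeR, adjusted p of at most 0.05) for 2106 genes with a more positive and 1990 with a more negative change in PAB hearts. After removal of the length trend these counts were 1578 and 1337 of 15196 genes. The log2 differences of single genes that passed this test before that removal and are given in the report are collected here. Calls of these single genes after the removal were not counted. More positive in PAB hearts were Uty (8.26), Eif2s3y (7.89), Gt(ROSA)26Sor (3.56), Nppa (3.00), mt-Co3 (2.76), Casq1 (2.12), Rpl22l1 (1.81), Nppb (1.58), Gdf15 (1.55), Ctgf (1.46), Myl9 (1.42), mt-Atp6 (1.39), Tnni1 (1.25) and Tpm2 (1.17). Smaller positive differences were those of Bnip3 (1.06), Pgk1 (1.04), Myh7 (1.00), Eln (0.92), Ldha (0.89), Eno1 (0.86), Rfc3 (0.78), Cdk1 (0.77), Fhl2 (0.76), Tk1 (0.73), Ccnb1 (0.70), Slc2a1 (0.70) and Pcna (0.42). More negative in PAB hearts were A530058N18Rik_2 (-3.62), Hmcn2 (-2.30), Kcnd2 (-1.96), Hcn2 (-1.73), Adnp (-1.62), Lrrn4 (-1.31), Ppargc1a (-1.13), Ppara (-1.09), Myocd (-1.07), Myh6 (-0.97), Dbp (-0.93), Klf9 (-0.91), Thrb (-0.83), Mki67 (-0.77), E2f1 (-0.66) and Kcnip2 (-0.64). Of these 43 genes 35 were also called when the class of Xist and Y genes entered the fit, and 37 without P7 PAB replicate 1. Uty and Eif2s3y are themselves of the Y chromosome, and neither was called with that class in the fit.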

How the results depend on the processing

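Scaling by the total count gave 645 genes higher and 3068 lower in PAB hearts, 397 and 2881 in sham hearts and 1343 called the same way in both arms. It turned the list medians of thick filament (-0.178), thin filament (-0.0486), Z disc (-0.0973), fatty acid (-0.0501), hypoxia (-0.0103), matrix (-0.228) and immediate early genes (-0.0270) below 0. The stricter filter left 586 higher calls in sham hearts. With no fold threshold, 3521 genes were higher and 3354 lower in PAB hearts, 2566 and 2650 in sham hearts and 2447 in both. Removal of the length trend left 927 higher calls in PAB hearts, with a calcium handling median of 0.0696, and together with the replicate block 908, with medians of 0.0970 for calcium handling and 0.00665 for splicing. With the class term 2291 genes differed between the arms, and after removal of the length trend 2915 did. The cause of these shifts was not tested. Leaving out 1 library gave 2646 (without P7 PAB replicate 1) to 4784 (without P7 sham replicate 1) genes that differed between the arms, 1195 to 1577 higher and 1125 to 1386 lower calls in PAB hearts, and a Z disc median of -0.0013 to 0.26.

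Replicate numbers are only numbers here: same-numbered PAB libraries had correlations of 0.0403 and 0.0365. The replicate block gave 1405 higher and 1254 lower calls in PAB hearts and 3880 genes that differed between the arms. A fit of 1 arm alone gives no difference between arms. DESeq2 gave 1355 higher and 1238 lower calls. Of 130 named genes called, 83 were called in every alternative fitted to them (20 to 22 each), 25 were not called after removal of the length trend, and 0 reversed. With 2 libraries at P7 PAB the spread rests largely on the other groups.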

Other observations

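Marker genes of other tissues that a heart dissection could carry were summed in PAB libraries. The lung markers averaged 2.404 CPM in sum at P3 PAB and 3.394 CPM at P7 PAB. Both that were tested, Ager (log2 0.77) and Napsa (log2 1.34), were called higher, and neither after removal of the length trend. The sum of skeletal muscle markers was 6.31 to 7.43 CPM at P3 PAB and 4.98 to 5.85 CPM at P7 PAB. That of brown fat markers was 38.9 to 42.3 and 46.0 to 49.6 CPM, nearly all from Cidea and Dio2, with the defining Ucp1 at 0.0493 CPM or below. Nerve and Schwann cell markers summed to 10.2 to 12.8 and 11.7 to 16.0 CPM. The T cell and thymus markers averaged 1.82 and 2.195 CPM in sum, the B cell markers summed to 2.23 to 4.07 and 2.45 to 4.09 CPM, and the neutrophil markers to 6.34 to 16.9 and 8.65 to 12.2 CPM. The erythroid markers summed to 2259 to 6195 CPM at P3 PAB and 3413 to 3913 CPM at P7 PAB.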
